A study of Mus musculus with 4 samples.

Results

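The Schlafen genes of mouse form a family of growth-regulatory and interferon-inducible genes, and their RNA was followed in naive CD4 T cells with and without the genes Btg1 and Btg2. The members Slfn1, Slfn2, Slfn3, Slfn5, Slfn8 and Slfn9 were taken by name, not by a rule on their measured values. Earlier results of these data were known at that time. They were 6 of the 48858 annotated genes with a listed transcript. All 6 passed the filter on low counts and were among the 12863 genes tested. In the DKO group (Btg1f/f Btg2f/f-CD4-Cre, 2 libraries) both genes were flanked by loxP sites and were deleted by a Cre recombinase driven from Cd4 regulatory sequences, which are active from the thymus onwards in the T cell lineage, so that the CD8 lineage also loses both genes. In the WT group (Btg1f/f Btg2f/f, 2 libraries) littermates carried the same flanked alleles without the recombinase. The cells were sorted as TCRb+CD4+CD25-CD62LhiCD44low, and their total RNA was depleted of ribosomal RNA and sequenced after random priming with a stranded kit. The labels do not state the age, sex or organ of origin. The series asked how loss of BTG1 and BTG2, proteins that recruit a deadenylase and so promote RNA decay, alters resting T cells.

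Schlafen proteins fall into short, intermediate and long forms. Slfn1 and Slfn2 encode short proteins that consist mostly of the shared core domain, Slfn3 and Slfn4 encode intermediate ones, and Slfn5, Slfn8, Slfn9 and Slfn14 encode long ones with a helicase-like domain at the carboxy-terminal end. Slfn1, the founding member, slows the growth of T cells when its expression is forced. Slfn2 is needed for T cell quiescence: in elektra mice, which carry a mutation in it, T cells do not stay quiescent and die upon activation, and the SLFN2 protein shields tRNA from cleavage by angiogenin. Many members are induced by type I interferon.

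The main measurement was that the Schlafen RNAs, Slfn2 included, were not distinguishable between DKO and WT cells beyond the spread between libraries. None of the 6 members passed an adjusted p of 0.05 (edgeR quasi-likelihood test with trimmed-mean scaling, TMM, and Benjamini-Hochberg adjustment over all genes tested), and 0 of 6 had an unadjusted p under 0.05. Such a p, in either direction, was found for 8.18% of all genes tested (492 higher and 560 lower in DKO) and for 7.05% of protein-coding genes. DESeq2 and limma on TPM also called 0 of 6 members, where they called 1.46% and 0.0389% of all genes in either direction. Of all genes tested 16 (0.124%) were called, 7 (0.0544%) of them higher and 9 (0.07%) lower in DKO. Btg1 and Btg2 themselves checked the labels. Btg1 stood at 6.06 and 5.77 CPM (estimated counts scaled to a common library size with TMM factors) in DKO, against 529.6 and 469.9 CPM in WT. Btg2 stood at 0.294 and 0.323 CPM in DKO, against 92.9 and 92.1 CPM in WT. Both fell in DKO, with log2 fold changes of −6.40 and −8.18 and adjusted p of 1.43e-06 and 8.76e-07 (edgeR, Benjamini-Hochberg).

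Some facts of the libraries touch every value below. Total estimated counts were 16567226 and 17827631 in DKO and 14970076 and 13889894 in WT. Of the counts joined to a gene, nuclear protein-coding genes other than Lars2 took 35.7 and 40.7% in DKO and 30.9 and 30.7% in WT. A chosen set of RNA polymerase III products (Rmrp, Rpph1, Rn7s1, Rn7s2, Rn7sk) took 1.18 and 1.03% in DKO and 1.43 and 1.94% in WT. Other products of that polymerase were not in this set. The CD4 T cell markers Cd3e, Cd3d, Cd3g, Cd4, Cd28 and Lat summed to 1341 and 1377 CPM in DKO and 1096 and 1324 CPM in WT. The 6 regulatory T cell markers summed to 105 and 120 CPM in DKO and 47.2 and 63.3 CPM in WT, with 5 of 6 higher in both DKO libraries than in both WT libraries, beside 19.8% of all genes tested. The 5 CD8 T cell markers summed to 52.9 and 48.8 CPM in DKO and 32.2 and 37.6 CPM in WT. Of the 4 tested, 3 were higher in both DKO libraries than in both WT libraries, beside the same 19.8%. The other, Prf1, overlapped, with 21.8 and 14.4 CPM in DKO and 15.7 and 20.2 CPM in WT. Cd8a itself was too low to be tested, at 1 and 5 counts in DKO and 6 and 1 in WT. B cell, myeloid, NK and erythroid lists stayed under 9 CPM in every library. The B cell marker Blk, 2 of 9 myeloid markers (S100a8 and S100a9) and 1 of 4 NK markers (Ncr1) were at 0 throughout. The part of these shifts in the Schlafen values was not tested, and in such bulk RNA fewer cells of a type and less RNA per cell cannot be told apart. An exact permutation test of 2 against 2 libraries gives no two-sided p under 0.333, so all p-values come from fits across genes.

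The Schlafen genes were neighbours. All 8 protein-coding genes between 82951349 and 83286726 on chromosome 11 of GRCm38, a span of 335.4 kb, carried the family name. Along the chromosome the order was Slfn5 (82951349 to 82964840, plus strand), Slfn9 (82978390 to 82991830, minus), Slfn8 (83002158 to 83020810, minus), the pseudogene Slfn10-ps (83028130 to 83040042, minus), Slfn2 (83065112 to 83070678, plus), Slfn1 (83116849 to 83122670, plus), Slfn4 (83175186 to 83190216, plus), Slfn3 (83191330 to 83215154, plus) and Slfn14 (83275110 to 83286726, minus). The related gene Slfnl1 lies on chromosome 4.

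The short genes were the most abundant members, and their promoters are shown because both hold one 9-base word. The windows reach from 250 bases before to 50 bases after the annotated start, from RefSeq on GRCm38.p6, at chr11:83064862-83065161 (plus strand) for Slfn2 and chr11:83116570-83116869 (plus strand) for Slfn1. The capitals mark the word ACTTCCTGG, which holds the core letters that ETS-family factors favour and was chosen after the promoters had been read.
Slfn2: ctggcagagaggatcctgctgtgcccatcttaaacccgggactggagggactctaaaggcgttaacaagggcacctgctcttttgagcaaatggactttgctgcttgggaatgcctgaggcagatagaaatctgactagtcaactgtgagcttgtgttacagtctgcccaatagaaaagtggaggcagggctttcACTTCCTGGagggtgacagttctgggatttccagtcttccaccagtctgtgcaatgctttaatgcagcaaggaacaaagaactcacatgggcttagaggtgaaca
Slfn1: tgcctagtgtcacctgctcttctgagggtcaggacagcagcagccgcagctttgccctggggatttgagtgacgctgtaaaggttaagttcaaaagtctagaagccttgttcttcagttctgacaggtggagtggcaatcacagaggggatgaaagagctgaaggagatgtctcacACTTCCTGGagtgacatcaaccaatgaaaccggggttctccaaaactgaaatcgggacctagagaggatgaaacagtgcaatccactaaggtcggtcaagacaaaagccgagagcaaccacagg
The word began at position −55 from the start of Slfn2 and at −74 from that of Slfn1. On the same strand it also began at −42 in Slfn3 and at −73 in Slfn4, and it was not in the windows of Slfn5, Slfn8, Slfn9 and Slfn14. Searched on both strands, it lay in 277 of 32851 mouse promoter windows of this length (0.843%). A match describes letters and does not show a bound site.

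Among the long members, Slfn8 and Slfn9 have related promoters, and both hold an interferon-response-like word. Their windows are chr11:83020761-83021060 (minus strand) for Slfn8 and chr11:82991781-82992080 (minus strand) for Slfn9, with the word in capitals.
Slfn8: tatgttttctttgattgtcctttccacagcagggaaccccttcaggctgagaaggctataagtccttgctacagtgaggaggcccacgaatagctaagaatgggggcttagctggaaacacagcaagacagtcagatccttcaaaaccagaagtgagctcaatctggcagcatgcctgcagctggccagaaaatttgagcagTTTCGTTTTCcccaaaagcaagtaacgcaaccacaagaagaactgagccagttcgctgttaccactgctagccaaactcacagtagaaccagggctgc
Slfn9: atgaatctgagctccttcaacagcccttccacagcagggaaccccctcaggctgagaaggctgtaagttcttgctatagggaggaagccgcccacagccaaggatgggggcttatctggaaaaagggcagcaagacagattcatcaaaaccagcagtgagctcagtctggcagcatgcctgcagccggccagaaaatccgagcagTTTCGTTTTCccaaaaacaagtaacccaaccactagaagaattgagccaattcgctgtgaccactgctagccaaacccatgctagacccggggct
The word searched was GAAA, then NN (any bases), then GAAA, on both strands, a simplified form of the interferon-stimulated response element, which type I interferon signalling uses through STAT and IRF proteins. In Slfn8 and Slfn9 it read TTTCGTTTTC, its reverse complement, and began at −48 and −45. RefSeq lists a second start for Slfn8, with the window chr11:83020673-83020972, in which the same copy of the word began at −136. In Slfn5 it read GAAAAAGAAA, at the head of a run of A, and began at −155. The Slfn5 window, chr11:82951852-82952151 (plus strand), belongs to a RefSeq start that lies inside the gene, downstream of the GENCODE start at 82951349. The windows of Slfn1, Slfn2, Slfn3, Slfn4 and Slfn14 did not hold these letters. Of all 32851 windows, 1131 (3.44%) held the word. The Slfn8 and Slfn9 windows were 80.5% identical when aligned, whereas Slfn1 and Slfn2 were 46.1% identical.

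Slfn2, the member tied to quiescence, was the most abundant. Its estimated counts were 3014 and 3650 in DKO and 2014 and 2319 in WT, all on 1 annotated transcript. Scaled by TMM it had 177 and 169 CPM in DKO, against 145 and 200.2 CPM in WT. The DKO libraries were close to each other and both lay inside the range of the WT libraries. The mean was 173 ± 6.31 CPM in DKO and 172 ± 39.3 CPM in WT (SD, n = 2 each). The log2 fold change, DKO over WT, was 0.0054 (SE 0.17, 95% interval −0.39 to 0.40), with an adjusted p of 0.997 (edgeR, Benjamini-Hochberg). Which WT library was used decided its sign, since the log2 fold change was −0.21 without WT replicate 1 and 0.27 without WT replicate 2.

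Slfn1, which restrains T cell growth when forced, had 138 and 146 CPM in DKO, against 106 and 134 CPM in WT. The 2 DKO libraries were above the 2 WT libraries, the lower one by a small margin. Its log2 fold change was 0.24 (SE 0.15, 95% interval −0.10 to 0.59, adjusted p = 0.741 by edgeR with Benjamini-Hochberg adjustment). Of all genes tested, 19.8% (22.3% of protein-coding genes) had both DKO libraries above both WT libraries and 18.8% had both below. The log2 fold change was 0.082 without WT replicate 1 and 0.44 without WT replicate 2.

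**Figure D1:**
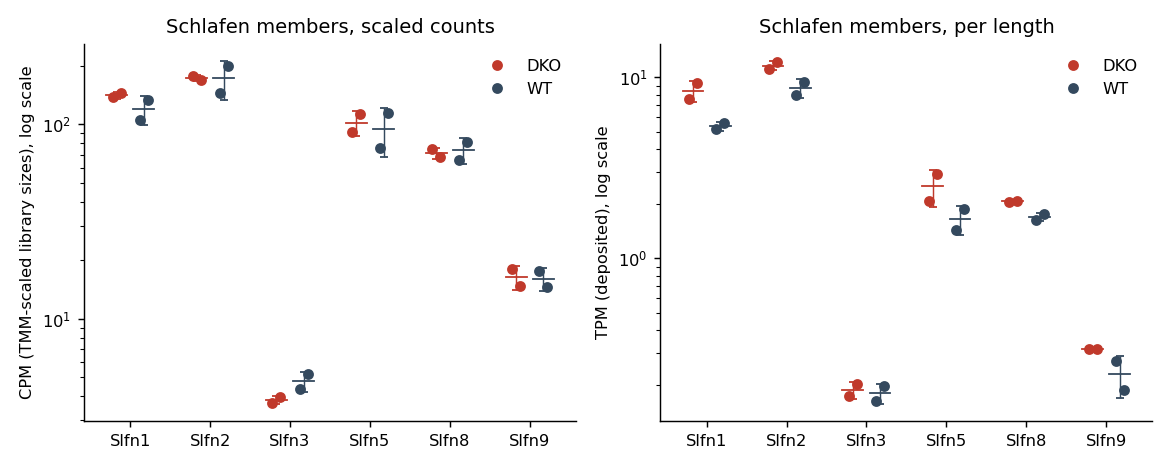
Schlafen members in each library, DKO (red, left) and WT (blue, right). The left panel gives CPM on TMM-scaled library sizes and the right panel the deposited TPM, both on log axes, with points for libraries, horizontal lines for means and bars for SD (n = 2 each). In CPM the groups overlap for Slfn2, Slfn5, Slfn8 and Slfn9, whereas in TPM the DKO points lie above the WT points for all members but Slfn3.

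Slfn3, an intermediate member studied in gut epithelium, was the scarcest. It received 63 and 86 estimated counts in DKO and 61 and 60 in WT, or 3.71 and 3.97 CPM in DKO against 4.38 and 5.18 CPM in WT. Both DKO libraries lay below both WT libraries, with a log2 fold change of −0.31 (SE 0.30, 95% interval −0.99 to 0.37, adjusted p = 0.854 by edgeR with Benjamini-Hochberg adjustment). It was the member with the widest interval. Under scaling by total counts the value was 0.040, so the direction was not kept.

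Among the long members, Slfn5, whose human counterpart responds to interferon, had 91.5 and 113 CPM in DKO, against 76.1 and 114 CPM in WT. One DKO library lay at the level of the higher WT library and the other between the WT libraries. Its log2 fold change was 0.11 (SE 0.21, 95% interval −0.37 to 0.58, adjusted p = 0.946 by edgeR with Benjamini-Hochberg adjustment), and it was −0.16 without WT replicate 1 and 0.44 without WT replicate 2. Slfn8, related to human SLFN11 and SLFN13, had 74.4 and 67.7 CPM in DKO, against 65.7 and 81.7 CPM in WT. Both DKO libraries lay inside the WT range. Its log2 fold change was −0.052 (SE 0.15, 95% interval −0.40 to 0.29), and it was −0.20 without WT replicate 1 and 0.13 without WT replicate 2. Slfn9, its close relative, had 18.1 and 14.8 CPM in DKO, against 17.7 and 14.5 CPM in WT. The groups overlapped almost fully, and the log2 fold change was 0.026 (SE 0.19, 95% interval −0.40 to 0.46). Adjusted p was 0.966 for Slfn8 and 0.989 for Slfn9 (edgeR, Benjamini-Hochberg).

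Over the 6 members, 1 had both DKO libraries above both WT libraries (Slfn1), 1 had both below (Slfn3) and 4 overlapped, beside 19.8% of all genes above and 18.8% below. The median log2 fold change was 0.016, beside −0.015 over all genes tested. Fold changes above 0 were found in 4 of 6 members and in 48.1% of all genes. The intervals of all 6 members reached past 0 on both sides, so a difference inside them in either direction was not detectable with 2 libraries a group.

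The other genes of the family were near or under the floor, apart from the pseudogene. Slfn4, a gene of myeloid cells, had 0 and 3 estimated counts in DKO and 0 and 2 in WT. Slfn14, a gene of platelets and reticulocytes, had 1 and 0 in DKO and 1 and 0 in WT. Slfnl1 had 2 and 1 in DKO and 0 and 0 in WT. A floor of 3 counts stood at 0.177 and 0.139 CPM in DKO and 0.215 and 0.259 CPM in WT, so these genes were not detectable at this depth, and such floors cover counting error only. The pseudogene Slfn10-ps had 7.54 and 7.80 CPM in DKO, against 6.60 and 6.13 CPM in WT. The 2 DKO libraries were above the 2 WT libraries, with a log2 fold change of 0.27 (SE 0.23, 95% interval −0.25 to 0.78, adjusted p = 0.828 by edgeR with Benjamini-Hochberg adjustment).

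Per transcript length, the order of the members was nearly the same in every library. In the deposited TPM, which is scaled for transcript length, Slfn2 led with 11.1 and 12.1 TPM in DKO and 7.95 and 9.42 TPM in WT. Slfn1 followed with 7.62 and 9.25 TPM in DKO and 5.15 and 5.58 TPM in WT, and it was below Slfn2 within each of the 4 libraries. Slfn5, at 2.08 and 2.91 TPM in DKO and 1.43 and 1.87 TPM in WT, was not separated from Slfn8, at 2.05 and 2.08 TPM in DKO and 1.63 and 1.75 TPM in WT. Slfn9 came next, with 0.316 and 0.314 TPM in DKO and 0.270 and 0.187 TPM in WT. Slfn3, at 0.172 and 0.202 TPM in DKO and 0.164 and 0.196 TPM in WT, overlapped with Slfn10-ps, at 0.207 and 0.244 TPM in DKO and 0.159 and 0.128 TPM in WT, and in WT with Slfn9. Slfn2 alone held 47.1 and 44.6% of the TPM of the cluster in DKO and 47.5 and 49.3% in WT.

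Ratios within a library do not depend on how libraries are scaled. Slfn1 stood at 68.6 and 76.5% of Slfn2 TPM in DKO, against 64.7 and 59.2% in WT. Both DKO ratios were above both WT ratios, and the log2 ratio differed by 0.23. Slfn3 stood at 1.55 and 1.67% of Slfn2 in DKO, against 2.06 and 2.08% in WT, so that both DKO ratios were below. For Slfn8 the ratio was 18.4 and 17.2% in DKO, against 20.4 and 18.6% in WT, with both DKO ratios below by a margin much smaller than the spread within WT. The ratios of Slfn5 and Slfn9 to Slfn2 overlapped between the groups. The share of all genes whose ratio to Slfn2 separates the groups in this way was not counted. In CPM, 19.8% of all genes tested had both DKO libraries above both WT libraries and 18.8% had both below. The ratios to Slfn2 were not tested, and a ratio does not tell which gene of a pair differed.

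The scaling of the libraries set the level and the direction of several members. With TMM, DESeq2 size factors or protein-coding genes only, the median log2 fold change of all genes lay between −0.019 and −0.015. Scaled by total estimated counts the median of all genes was 0.33. Scaled to the summed polymerase III transcripts named above it was 0.90. Under the polymerase III scaling Slfn2 had a log2 fold change of 0.97 (adjusted p = 0.0690 by edgeR with Benjamini-Hochberg adjustment) and Slfn1 one of 1.20 (adjusted p = 0.0515), while Slfn5 had 1.11, Slfn9 0.90, Slfn8 0.89 and Slfn3 0.64. None of the 6 passed, beside 3.99% of all genes called in either direction under that scaling and 2.02% under total counts, where none of the 6 passed either. With polymerase III scaling the DKO libraries were above both WT libraries for 6 of 6 members, beside 71.9% of all genes. In TPM this held for 5 of 6 members, beside 48.1% of all genes and 54.5% of protein-coding genes. The calls over all genes split into 7 higher and 9 lower in DKO with TMM, 35 and 16 with protein-coding genes only, 55 and 133 with DESeq2, 194 and 66 under total counts, and 495 and 22 under polymerase III scaling. Relative to the median of all genes, Slfn2 stood at 0.064, Slfn1 at 0.30 and Slfn3 at −0.27 under the polymerase III scaling. The share of Schlafen members in nuclear protein-coding counts, again without Lars2, was 0.145 and 0.155% in DKO and 0.126 and 0.151% in WT.

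**Figure D2:**
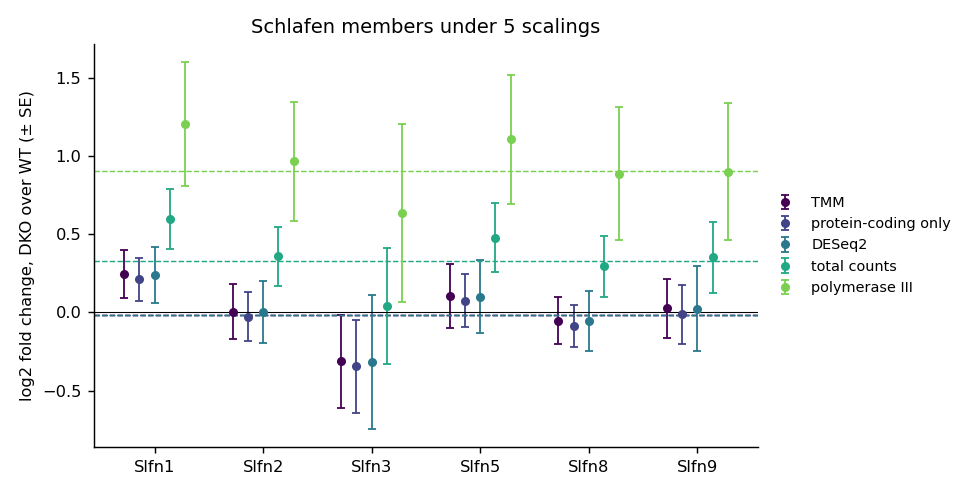
Log2 fold change, DKO over WT, of each Schlafen member under 5 ways of scaling the libraries, with bars for SE. Dashed lines give the median of all genes tested under the scaling of the same colour, which is 0.33 for total counts and 0.90 for polymerase III transcripts. Members shift with the median, so that Slfn2 runs between −0.027 and 0.97.

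The Schlafen members other than Slfn9 differed more between the WT libraries than between the DKO libraries. For DKO replicate 2 over DKO replicate 1 the log2 ratio of CPM was 0.30 for Slfn5, −0.074 for Slfn2, 0.084 for Slfn1, −0.14 for Slfn8, 0.098 for Slfn3 and −0.29 for Slfn9. For WT replicate 2 over WT replicate 1 it was 0.58 for Slfn5, 0.47 for Slfn2, 0.34 for Slfn1, 0.31 for Slfn8, 0.24 for Slfn3 and −0.28 for Slfn9. Between the DKO libraries, 3 of 6 members and 13 of 34 interferon response genes were higher in replicate 2, beside 50.3% of all genes tested, and the median log2 ratios were 0.0050 for the members and −0.049 for the list. Between the WT libraries, 5 of 6 members and 32 of 34 interferon response genes (94.1%) were higher in replicate 2, beside 51.4% of all genes tested. The median log2 ratio of the list there was 0.65, beside 0.014 for all genes. Over 5456 protein-coding genes the median absolute log2 ratio was 0.126 between the DKO libraries and 0.204 between the WT libraries. The 3 members whose promoter windows hold the interferon-response-like word had WT ratios of 0.58, 0.31 and −0.28, and the 3 without it had 0.47, 0.34 and 0.24. This is a description of 1 pair of animals, with no test, and a cause was not tested.

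The genes of interferon sensing and response were described by lists that hold their usual members. Of 13 receptor and signalling genes 0 were called in either direction, 7 had both DKO libraries above both WT libraries (19.8% of all genes did) and 1 had both below (18.8% of all genes did), and the median log2 fold change was 0.15. Ifngr1, a chain of the receptor for interferon gamma, had 56.9 and 57.7 CPM in DKO, against 36.4 and 34.7 CPM in WT. Its groups were well apart, with a log2 fold change of 0.69 (SE 0.13) and an adjusted p of 0.139 by edgeR with Benjamini-Hochberg adjustment. Irf1, Ifnar2 and Jak1, a transcription factor, a type I receptor chain and a receptor kinase, had log2 fold changes of 0.26, 0.21 and 0.21. Of 34 interferon response genes 0 were called, 5 lay above and 4 below, which is under the shares of all genes, and the median was 0.0058 within a range from −0.72 to 0.57. The 4 with the smallest p were Ifi47 (0.40), Samhd1 (0.35), Irgm1 (0.24) and Ifit2 (0.23). Ifi47 and Irgm1 encode interferon-inducible GTPases, SAMHD1 hydrolyses deoxynucleotide triphosphates and IFIT2 binds RNA.

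Genes tied to tRNA cleavage and protection, the setting of SLFN2, gave few values, and tRNA itself was not examined. Of 9 genes of tRNA cleavage and protection 6 were tested, 0 were called, 2 had both DKO libraries above both WT libraries (beside 19.8% of all genes) and the median log2 fold change was 0.049. Ddx1 and Rtcb, parts of the tRNA ligase complex, stood at 0.27 and −0.30. Nsun2, a tRNA methyltransferase, stood at 0.17, and Elac2, which trims the ends of precursor tRNA, at 0.15. The angiogenin genes Ang, Ang4 and Ang5 did not pass the filter on low counts.

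Other genes tied to T cell quiescence did not pass the test, nor did early activation genes, whose values stood above WT more often than below. Of 25 quiescence genes the 2 called were the deleted Btg1 and Btg2, and the median log2 fold change was −0.0039. Tob1, a relative of the BTG genes, had 30.7 and 28.8 CPM in DKO, against 20.2 and 19.2 CPM in WT (log2 fold change 0.59, SE 0.14, adjusted p = 0.228 by edgeR with Benjamini-Hochberg adjustment). Peli1, a ubiquitin ligase that restrains T cell activation, had a log2 fold change of 0.40. Of 13 early activation genes 0 were called, 8 had both DKO libraries above both WT libraries, 0 had both below, and the median was 0.66. Cd44, which the sort required to be low, had 29.3 and 28.6 CPM in DKO, against 15.1 and 16.8 CPM in WT, a log2 fold change of 0.86. Il2ra, which encodes the CD25 that the sort removed, had a log2 fold change of 1.24. It was also counted among the regulatory T cell markers. Egr2 and Egr3, transcription factors induced by the T cell receptor, had log2 fold changes of 0.93 and 0.997. These genes were named for the smallest p of the list (edgeR), whose values ran from −0.24 to 2.02. Of all genes 2552 (19.8%) lay above and 2415 (18.8%) below.

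**Figure D3:**
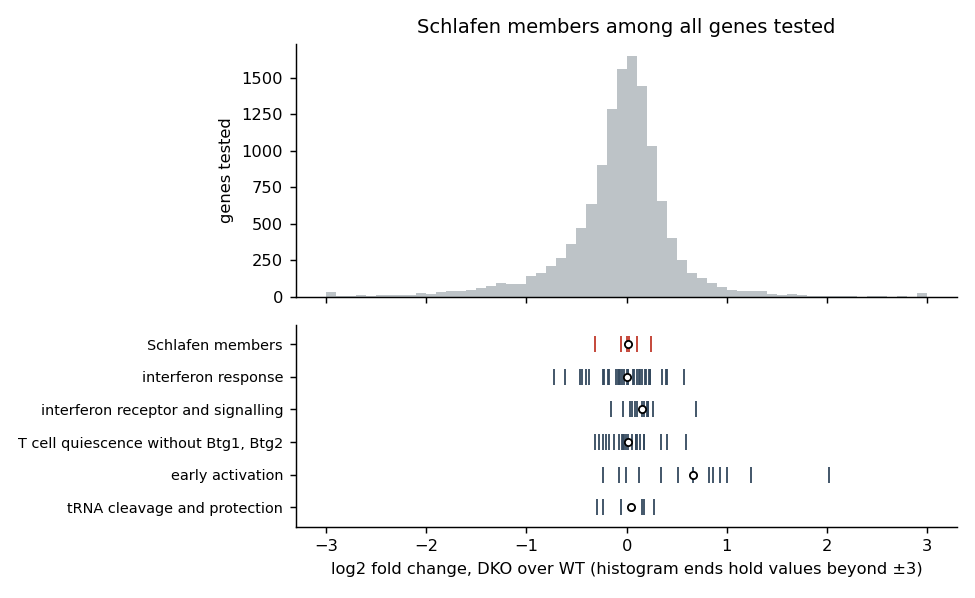
Log2 fold changes, DKO over WT, of all 12863 genes tested (grey histogram, number of genes). Ticks give each tested gene of the Schlafen set and 5 lists, with circles for medians. The T cell quiescence list is drawn without Btg1 and Btg2. The Schlafen ticks lie between −0.31 and 0.24 around the centre of the histogram, while the early activation list has its median at 0.66.

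Protein-coding genes beside the cluster were read from the same fit. Within 250 kb of its ends 7 are described (Zfp830, Lig3, Rffl, Rad51d and Nle1 before it, Ap2b1 and Taf15 after it), and none of them was called. Their log2 fold changes ran from −0.60 for Rad51d, a recombination protein, to 0.17 for Rffl, a ubiquitin ligase. Rad51d had 4.36 and 6.0 CPM in DKO, against 8.47 and 7.25 CPM in WT, with an unadjusted p of 0.0510 and an adjusted p of 0.618 (edgeR, Benjamini-Hochberg). Of the members 5 of 6 lay within this range, and Slfn1 lay above it.

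**Figure D4:**
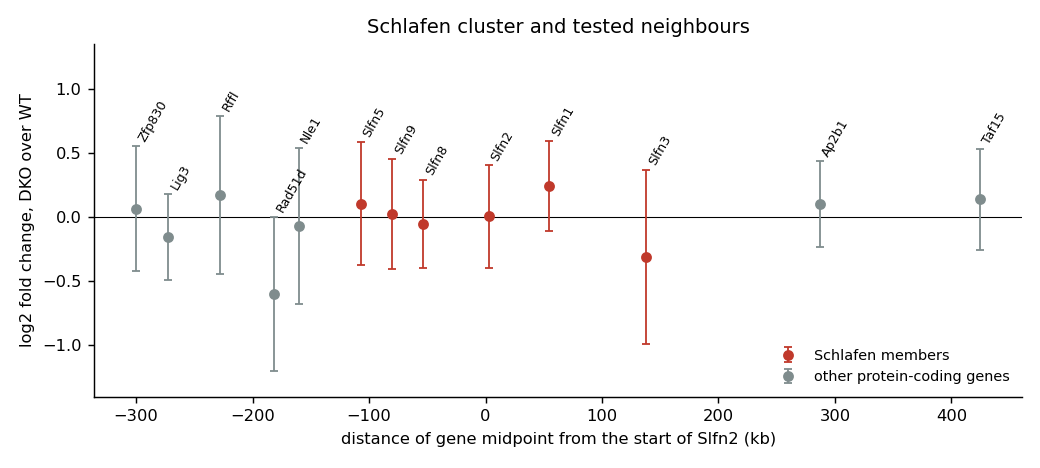
Log2 fold change, DKO over WT, with 95% intervals, of the Schlafen members (red) and 7 tested protein-coding neighbours (grey), by distance of the gene midpoint from the start of Slfn2 in kb. The intervals of the 6 members all cross 0, as do those of the neighbours, with Rad51d at −0.60 reaching just past it.

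The genes with the level profile most like that of Slfn2 over the 4 libraries were found by the root mean square distance of centred log2 CPM among 5455 other protein-coding genes with a mean of at least 10 CPM. They were Ptma (0.00826), Fbxo38 (0.0107) and Ndufv2 (0.0120), which encode prothymosin alpha, an F-box protein and a subunit of mitochondrial complex I. Ptma had 391.7 and 368 CPM in DKO, against 319.7 and 438 CPM in WT. All share with Slfn2 a low WT replicate 1, a high WT replicate 2 and DKO libraries between them. Slfn8 was 224th on this measure, Slfn1 1363rd, Slfn5 1677th and Slfn9 4359th, with distances of 0.0685, 0.135, 0.148 and 0.273. Slfn3 was under the CPM minimum.

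How well reads can be assigned differed between members. The coding sequences of Slfn8 and Slfn9 are both 2730 bases long and 92.7% identical, and those of Slfn3 and Slfn4, of 1551 and 1806 bases, are 79.0% identical. Slfn1 and Slfn2, of 1011 and 1134 bases, are 63.1% identical. The first 90 coding bases of the Slfn8-201 and Slfn9-201 transcripts (GENCODE M21 on GRCm38, chromosome 11, minus strand) show the closeness, with the 15 differing bases in capitals.
Slfn8: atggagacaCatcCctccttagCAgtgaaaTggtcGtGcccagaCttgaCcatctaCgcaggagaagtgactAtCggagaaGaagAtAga
Slfn9: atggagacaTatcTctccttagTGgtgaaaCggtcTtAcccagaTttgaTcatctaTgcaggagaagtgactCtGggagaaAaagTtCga
Of all distinct 31-base words in its transcripts, Slfn1 shared the fewest with other genes and had 98.0% to itself. The figure was 89.5% for Slfn2, 86.7% for Slfn5, 76.2% for Slfn9, 72.7% for Slfn8 and 70.2% for Slfn3. Slfn8 shared 19.1% of its words with Slfn9 and 18.7% with Slfn10-ps, so the values of these 3 genes are uncertain relative to each other. Summed into 1 unit they had a log2 fold change of −0.015. Slfn5 shared 7.99% with the antisense gene Slfn5os, which received 0 and 0 counts in DKO and 1 and 2 in WT.

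**Figure D5:**
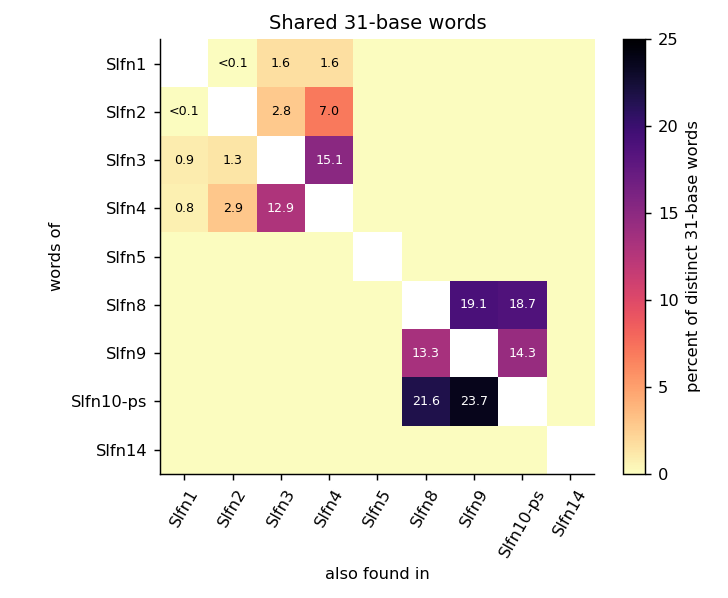
Percent of the distinct 31-base words of each Schlafen gene (vertical axis) that also occur in another Schlafen gene (horizontal axis). Sharing falls into a block of Slfn8, Slfn9 and Slfn10-ps, with 19.1% of Slfn8 words in Slfn9, and a block of Slfn1 to Slfn4, with 15.1% of Slfn3 words in Slfn4.

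Of the members, Slfn3 shared the most words with genes outside the named family (18.7%). The part was 5.35% for Slfn5, 3.99% for Slfn9, 3.98% for Slfn2, 1.31% for Slfn1 and 0.579% for Slfn8. The pseudogene Gm11427 (chromosome 11, 83224454 to 83260960, plus strand), which lies between Slfn3 and Slfn14 and was looked at after its values had been seen, held 10.8% of the Slfn3 words. Gm11427 had 0.883 and 0.785 CPM in DKO, against 2.87 and 2.59 CPM in WT, or 15 and 17 counts in DKO and 40 and 30 counts in WT. Its log2 fold change was −1.71 (SE 0.52, adjusted p = 0.389 by edgeR with Benjamini-Hochberg adjustment). Slfn3 and Gm11427 both lay lower in both DKO libraries, and reads that fit both were divided by estimation, so their values are not independent.

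The estimates for single transcripts were read with that in mind. Slfn5-201 held 63.9 and 62.3% of Slfn5 TPM in DKO and 67.8 and 64.0% in WT. The shorter Slfn5-203 held 27.1 and 25.4% in DKO and 22.0 and 19.8% in WT, with both DKO libraries above. Slfn8-201 held 64.3 and 71.2% of Slfn8 TPM in DKO and 62.6 and 55.8% in WT, again with both DKO libraries above. These shares rest on deposited estimates and were not tested. How often the share of a transcript separates the groups in this way over all transcripts was not counted. Slfn9-201 held 95.8 and 86.4% of Slfn9 TPM in DKO and 97.4 and 100% in WT. For Slfn3 the split was unstable at these low counts, as Slfn3-202 received 0 and 44.7 estimated counts in DKO and 0 and 44.1 in WT.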

How the data were processed

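Naive CD4 T cells of 2 DKO and 2 WT mice were compared. Groups and replicate numbers came from the sample titles and genotype labels, which speak of pairs of mice without saying that a number marks a litter, so the numbers were not used to pair libraries. The p-values set the difference between the groups against the spread between these libraries, as estimated with fits across genes. The authors quantified transcripts with kallisto, per the submitters' processing notes, which list mm10 and GRCm38 as builds. Not given in the sources used here were its version, its strand option and the annotation behind it. The authors deposited estimated counts per transcript, unscaled, and TPM, scaled for the deposited effective length, per the file headers. As the strand option is unknown, a gene and an overlapping antisense gene may share reads.

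Of 126782 transcripts, 125182 (98.7%) matched a GENCODE M21 identifier once versions were dropped, and 97.0% of these had its length. Transcripts without a gene held 0.822 to 0.852% of counts and were left out. Estimated counts were summed per gene, rounded and tested with edgeR 4.0.16 in R 4.3.3 (filterByExpr, TMM, robust quasi-likelihood F test on genotype), with Benjamini-Hochberg adjustment over all 12863 genes at 0.05. The biological coefficient of variation was 0.220. Log2 fold changes are DKO over WT. Alternatives used DESeq2 1.42.0, limma 3.58.1 on log2(TPM + 0.5) and log2(TPM + 0.1), other scalings, other filters and the removal of each library. The main edgeR fit and the limma fit on log2(TPM + 0.5) were tested on simulated data, and the other alternatives were not.

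The members and lists were chosen with earlier results of these data known. Named are all members and other Schlafen genes, up to 4 genes per list with the smallest p, Btg1 and Btg2, tested neighbours within 250 kb and the 3 genes most like Slfn2; others are marked. Promoter windows are from RefSeq, GRCm38.p6, and all 6 members matched by symbol. Protein sequences were not used here, and 1 neighbour and 2 markers of other cell types are not reported here.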

Additional observations from a re-analysis of the deposited data

How the results depend on the processing

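Under 16 alternatives the 6 members gave 96 log2 fold changes, where the sum of Slfn8, Slfn9 and Slfn10-ps stood for both Slfn8 and Slfn9. Of these 0 passed an adjusted p of 0.05, 11 had an unadjusted p under 0.05 and 19 had the other sign than the TMM value. Under polymerase III scaling, 5338 of 12961 genes tested were higher and 78 lower in DKO at such an unadjusted p (edgeR). Of 12863 genes, 2692 were higher and 240 lower under total counts (edgeR). With a TPM pseudocount of 0.5 the numbers were 2238 and 232 (limma). The sign turned for Slfn3 under total counts (0.040), polymerase III scaling (0.64) and TPM with pseudocounts of 0.5 (0.016) and 0.1 (0.038). For Slfn8 the same settings gave 0.29, 0.89, 0.23 and 0.28. With protein-coding genes only, Slfn2 was −0.027 and Slfn9 −0.012, and Slfn9 summed with its near-identical relatives was −0.015. Leaving out each library in turn gave 0.082 to 0.44 for Slfn1, −0.21 to 0.27 for Slfn2, −0.43 to −0.17 for Slfn3, −0.16 to 0.44 for Slfn5, −0.20 to 0.13 for Slfn8 and −0.10 to 0.19 for Slfn9, where a group left with 1 library is assumed to vary like the other. The cause of these turns was not tested.

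The number of genes called moved from 16 to 260 under total counts, 188 with DESeq2, 517 under polymerase III scaling, 51 with protein-coding genes only, 395 with no filter, 31 with an effective length offset, and 5 and 6 with TPM at pseudocounts of 0.5 and 0.1. It was 165 without WT replicate 1, 80 without WT replicate 2, 52 without DKO replicate 1 and 40 without DKO replicate 2. Of the called genes 43.8% were higher in DKO under TMM, 74.6% under total counts, 95.7% under polymerase III scaling and 29.3% with DESeq2.

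Same-numbered libraries deviated in opposite directions from their group means (r = −0.47 across 5785 genes, which are not independent replicates). With the replicate block 142 genes were called and the members stood at 0.25 (Slfn1), 0.023 (Slfn2), −0.31 (Slfn3), 0.13 (Slfn5), −0.046 (Slfn8) and 0.030 (Slfn9). With crossed numbers, a pairing chosen after seeing the data, 520 genes were called. Neither block called a member. Depth limits Slfn4, Slfn14 and Slfnl1, which had at most 3 counts in each library.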
